A study of Mus musculus with 24 samples.

Results

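Messenger RNA of 9 genes of the growth hormone receptor and insulin-like growth factor (IGF) axis was measured in mouse liver by sequencing of oligo-dT selected RNA. The genes were matched by symbol to the 41388 genes of the count tables, and all 9 were found: Ghr, Stat5b, Socs2, Igf1, Igfals, Igfbp1, Igfbp2, Igfbp3 and Igfbp4. The series crosses genotype with feeding in 4 groups, each labelled with 6 libraries. Control mice are titled fl/fl and described as control or WT. Knockout mice are titled KO and described as a liver specific knockout of alanine transaminase 2, the product of Gpt2. Mice of each genotype had free access to food or were fasted for 18 h. The labels name neither the Cre driver nor the age of the animals, and whether the libraries are from different animals is not stated, so the p-values below measure the spread between libraries, which may in part be technical. Control fed replicate 6 was left out because its table was truncated, and control fasted replicate 4 because it held little liver RNA, which left 5 control fed, 5 control fasted, 6 knockout fed and 6 knockout fasted libraries.

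Growth hormone from the pituitary binds the receptor encoded by Ghr, which activates the kinase JAK2 and, through it, the transcription factor STAT5B. In hepatocytes this pathway drives transcription of Igf1, whose product circulates mostly in a complex with IGFBP3 and the acid labile subunit encoded by Igfals. Socs2 encodes an inhibitor that growth hormone signalling induces. The IGF binding proteins hold IGF1 in the blood and limit its access to receptors, and insulin is known to repress Igfbp1 transcription in liver through FOXO factors. Growth hormone resistance with low circulating IGF1 is a known feature of fasting.

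The 22 libraries held 18.4 to 55.3 M reads assigned to genes (median 37.55 M). Levels are given in CPM (counts per M assigned reads, with library sizes scaled by TMM) and, where genes are compared with each other, in RPKM (the same per kilobase of the gene's exons). The level of Gpt2, the targeted gene, was 370 ± 51.9 CPM in control fed livers (SD, n = 5), 697 ± 86.7 in control fasted (n = 5), 60.5 ± 11.3 in knockout fed (n = 6) and 112 ± 36.3 CPM in knockout fasted livers (n = 6). Knockout libraries thus held 16.3% of the control level when fed and 16% when fasted, and no knockout library overlapped a control library of the same feeding state. The summed level of 10 hepatocyte markers was at least 82913 CPM in each library, and that of 9 kidney tubule markers was at most 18.8 CPM. These are bulk samples, in which fewer cells of a type and less RNA per cell cannot be told apart.

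Per length, Igfbp4 and Igfbp2 were the most abundant of the 9 transcripts in control fed livers, with 372 ± 39.4 and 244 ± 74.7 RPKM (SD, n = 5), and their ranges overlapped (311 to 413 and 173 to 361 RPKM). Igfals (53.9 ± 5.13 RPKM), Igf1 (45.3 ± 5.79 RPKM), Ghr (42.3 ± 3.34 RPKM) and Igfbp1 (39.4 ± 45.9 RPKM) followed, and neighbours in this order did not differ beyond their spread. Stat5b was at 13 ± 2.24 RPKM, Igfbp3 at 3.59 ± 0.766 RPKM and Socs2 at 0.85 ± 1.07 RPKM. Igfbp1 varied so widely, from 3.18 to 113 RPKM, that its range also covered that of Stat5b (9.35 to 15.4 RPKM), and Socs2 (0.167 to 2.74 RPKM) overlapped Igfbp3 (2.44 to 4.21 RPKM). After the fast Igfbp2 stood above Igfbp4 in the means, with 727 ± 254 against 445 ± 68.7 RPKM in controls and 737 ± 360 against 473 ± 72.1 RPKM in knockouts, although the ranges overlapped in controls (513 to 1158 against 335 to 525 RPKM) and in knockouts (332 to 1185 against 379 to 593 RPKM).

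With fasting, the receptor and the genes for IGF1 and its acid labile partner fell while several binding protein genes rose. In edgeR's quasi-likelihood test, averaged over genotypes, 7 of the 9 genes passed an adjusted p (Benjamini-Hochberg over all 16757 genes tested) of 0.05: Igfbp1, Igfbp2 and Igfbp4 were higher in fasted livers and Ghr, Stat5b, Igf1 and Igfals were lower. Of all genes tested, 14.3% passed in this comparison (1187 higher, 1217 lower). Within controls 2 of the 9 passed (Igfbp2 higher, Ghr lower) against 8.12% of all genes, and within knockouts 3 passed (Igfbp2 higher, Ghr and Igfals lower) against 6.14%. With the library labelled control fasted replicate 4 included, 2 passed averaged over genotypes (Ghr and Stat5b) and 1 within each genotype (Ghr). The median log2 fold change of the 9 genes was 0.24 averaged over genotypes, against 0.01 over all genes. The 9 genes were chosen with earlier results of these libraries known, so these counts describe them and are not evidence about the axis as a set.

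**Figure D1:**
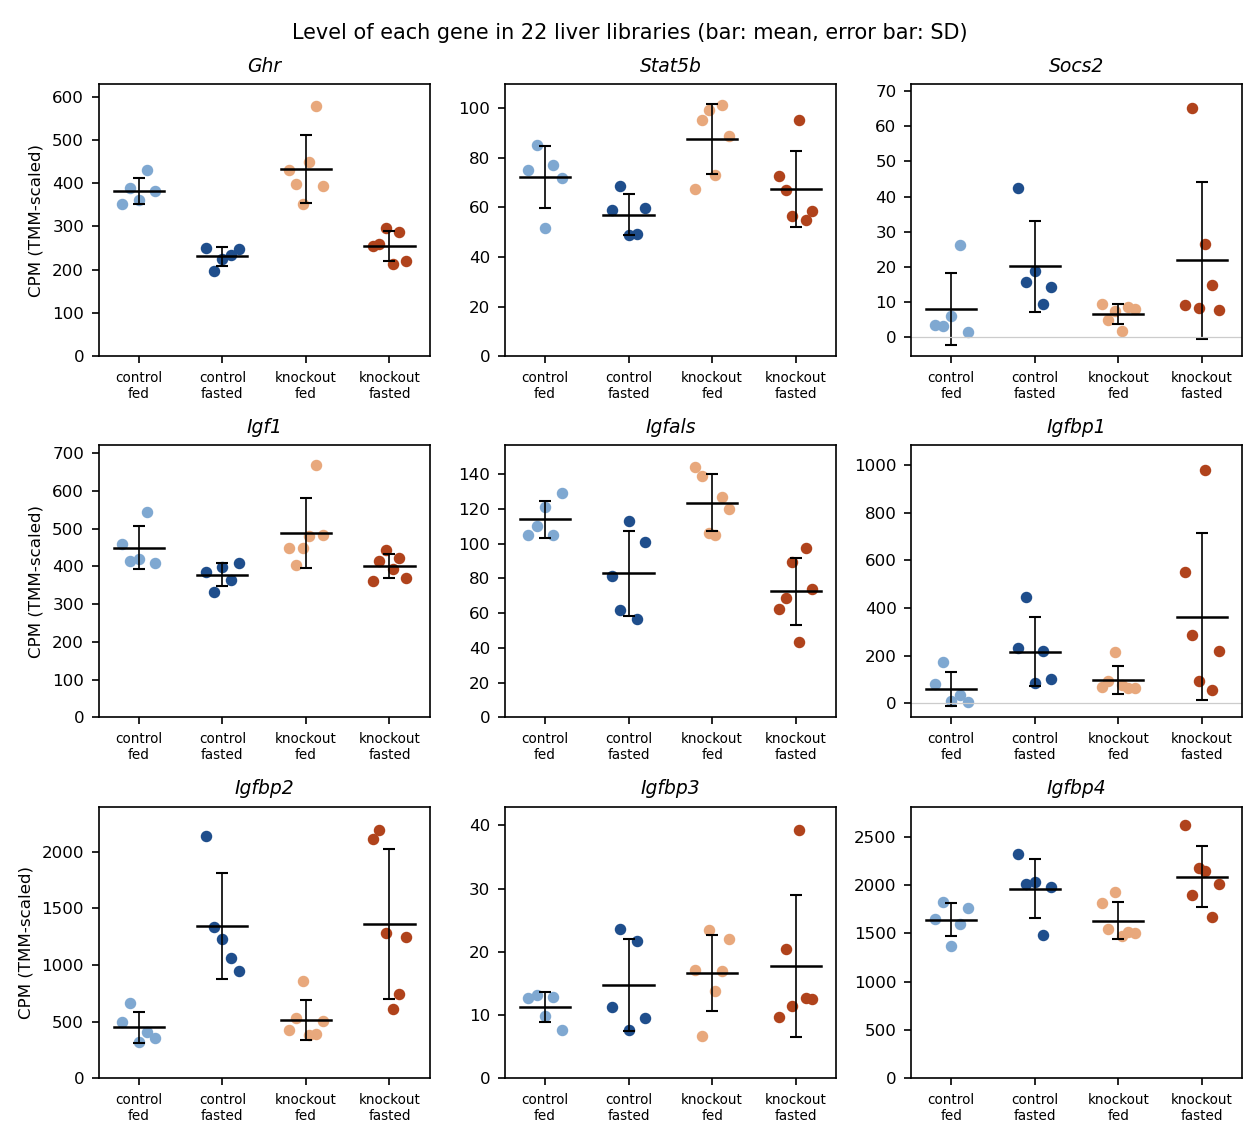
TMM-scaled CPM (linear y axis, a scale of its own in each panel) of the 9 genes in each of 22 libraries, by genotype and feeding state; points are libraries, horizontal bars are group means and error bars are SD. Fed and fasted libraries separate completely for Ghr, while Igfbp1 and Socs2 spread widely within groups.

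Ghr, at chr15:3317760-3583492 on the reverse strand (GRCm38), encodes the growth hormone receptor. It was at 352, 388, 361, 430 and 382 CPM in the 5 control fed libraries and at 251, 197, 225, 233 and 248 CPM in the 5 control fasted libraries. In knockouts it ranged from 352 to 579 CPM (median 415) when fed and from 213 to 296 CPM (median 257) when fasted. All 11 fasted libraries lay below all 11 fed libraries, across both genotypes. Ghr fell by 0.75 on the log2 scale averaged over genotypes (SE 0.08, 95% interval -0.91 to -0.58, edgeR adjusted p = 2.03e-08), to 59.4% of the fed mean, and its p ranked 119 of 16757 genes. The change was -0.73 ± 0.12 (SE) in controls (edgeR adjusted p = 8.16e-05) and -0.77 ± 0.11 in knockouts (9.86e-06).

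Stat5b (chr11:100780731-100850724, reverse strand), the STAT factor that carries the growth hormone signal to the nucleus, changed less. Its levels were 75, 85.1, 51.8, 77.2 and 71.8 CPM in control fed and 59, 68.4, 48.8, 49.3 and 59.8 CPM in control fasted libraries. Knockout libraries ranged from 67.4 to 101 CPM (median 92) when fed and from 54.9 to 95.3 CPM (median 62.7) when fasted. Fed and fasted ranges overlapped in each genotype. Averaged over genotypes Stat5b fell by 0.36 (log2, SE 0.10, edgeR adjusted p = 0.0126), to 77.9% of the fed mean. Neither genotype alone passed (adjusted p = 0.187 in controls and 0.109 in knockouts), but with library totals in place of TMM the knockout value passed (-0.44, adjusted p = 0.0282), as it did without knockout fasted replicate 4 (-0.49, adjusted p = 0.0137).

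Socs2 (chr10:95385362-95417180, reverse strand), the feedback inhibitor, was the least abundant of the 9 and rested on 57 to 1842 reads a library. It measured 3.58, 3.14, 6.05, 26.1 and 1.59 CPM in control fed and 42.5, 15.7, 18.8, 9.54 and 14.3 CPM in control fasted libraries. In knockouts it ranged from 1.78 to 9.48 CPM (median 7.73) when fed and from 7.85 to 65.1 CPM (median 11.9) when fasted. Every group but the knockout fed one held a library far above the others. The fasting value of 1.52 ± 0.51 (log2, SE) averaged over genotypes missed the threshold in edgeR's test (adjusted p = 0.0527). It passed with DESeq2 (adjusted p = 0.0138), with clusters of neighbouring title numbers as a random block in limma (0.00721), without control fed replicate 4 (log2 2.11, adjusted p = 0.00347) and without knockout fasted replicate 1, 3 or 6 (adjusted p between 0.0447 and 0.0467). In controls alone the value was 1.32 ± 0.74 (adjusted p = 0.363) and passed without control fed replicate 4 (adjusted p = 0.038).

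Igf1 (chr10:87858265-87937042, forward strand), the hormone gene itself, showed a small difference. It was at 459, 413, 419, 545 and 409 CPM in control fed and at 384, 332, 399, 364 and 410 CPM in control fasted libraries. Knockout libraries ranged from 404 to 669 CPM (median 465) when fed and from 360 to 442 CPM (median 404) when fasted. Of 11 fasted libraries, 7 lay below the lowest fed library and none lay above the highest. Igf1 fell by 0.27 averaged over genotypes (log2, SE 0.08, edgeR adjusted p = 0.0186), to 82.8% of the fed mean. Neither genotype alone passed, with -0.25 ± 0.12 in controls (adjusted p = 0.236) and -0.29 ± 0.11 in knockouts (adjusted p = 0.123), and the averaged call was lost without control fed replicate 4 (-0.23, adjusted p = 0.0578). The antisense gene Igf1os overlaps Igf1, and the strand setting of the counting is not given in the sources used here; Igf1os had a median of 40.5 reads against 15821.5 for Igf1.

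Igfals encodes the acid labile subunit, which is made by hepatocytes and holds IGF1 and IGFBP3 in the circulating complex; growth hormone is known to activate its promoter through STAT5. Its levels were 105, 110, 121, 105 and 129 CPM in control fed and 81.6, 61.7, 113, 56.8 and 101 CPM in control fasted libraries. In knockouts it ranged from 105 to 144 CPM (median 123) when fed and from 43.5 to 97.3 CPM (median 71.4) when fasted, with no overlap. Igfals fell by 0.61 averaged over genotypes (log2, SE 0.12, edgeR adjusted p = 0.000518), to 64.8% of the fed mean, and 10 of 11 fasted libraries lay below the lowest fed one. The fall in knockouts was 0.77 ± 0.16 (adjusted p = 0.00272). In controls the value was -0.46 ± 0.18 (adjusted p = 0.126), which passed without control fasted replicate 3 (-0.59, adjusted p = 0.0387), and the difference between genotypes was -0.31 ± 0.24 (interaction adjusted p = 1).

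Igfals lies at chr17:24878770-24882008 on the forward strand. RefSeq lists more than 1 start for it, and the 250 bases before a start upstream of the annotated gene body (chr17:24877981-24878230, GRCm38.p6) hold matches to 2 of the 3 motifs searched for FOXO factors and STAT5. They are shown 5′ to 3′ on the gene's strand, with the matches in capitals.

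Igfals upstream window: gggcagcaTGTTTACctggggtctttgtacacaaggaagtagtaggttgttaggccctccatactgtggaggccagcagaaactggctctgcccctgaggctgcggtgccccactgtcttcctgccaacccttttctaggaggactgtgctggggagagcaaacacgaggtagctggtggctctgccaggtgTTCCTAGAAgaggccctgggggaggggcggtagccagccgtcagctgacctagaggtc

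The first capitals, TGTTTAC, are GTAAACA read on the reverse strand (a FOXO motif), 242 to 236 bases before the start. The second, TTCCTAGAA, match the palindrome TTCNNNGAA (a STAT5 motif), 58 to 50 bases before it. A further Igfals window (chr17:24877594-24877843) holds TTCTCAGAA, 236 to 228 bases before its start. Of 32851 RefSeq windows in all, each 300 bases long (250 before and 50 after a start), 3.65% hold GTAAACA and 8.3% hold TTCNNNGAA on either strand. Windows were found for 8 of the 9 genes (13 windows), and Igfals alone among them held either motif. A match in these letters is a description of the sequence, not evidence that a factor binds there.

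Among the binding proteins, Igfbp2 (chr1:72824503-72852474, forward strand) showed the clearest rise. It encodes a binding protein secreted by liver. It was at 495, 667, 319, 410 and 359 CPM in control fed and at 2139, 1332, 1229, 1062 and 948 CPM in control fasted libraries, with no overlap. In knockouts it ranged from 386 to 859 CPM (median 466) when fed and from 613 to 2189 CPM (median 1261) when fasted, where 4 of 6 fasted libraries lay above the highest fed library. Igfbp2 rose 2.81-fold averaged over genotypes (95% interval 1.99 to 3.96, edgeR adjusted p = 0.000148). The rise was 2.98-fold in controls (1.79 to 4.96, adjusted p = 0.00639) and 2.64-fold in knockouts (1.66 to 4.19, adjusted p = 0.00931).

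Igfbp1 is the binding protein gene best known for its control by insulin. It was at 81, 173, 7.78, 33.7 and 4.85 CPM in control fed and at 231, 445, 86.4, 218 and 102 CPM in control fasted libraries. Knockout libraries ranged from 61.6 to 217 CPM (median 71.5) when fed and from 53.1 to 982 CPM (median 252) when fasted. Its coefficient of variation within groups was 62.4% to 117%, against 7.9% to 18.1% for Ghr. Igfbp1 rose 3.69-fold averaged over genotypes with a wide interval (1.55 to 8.77, edgeR adjusted p = 0.0396), and 7 of 11 fasted libraries lay above the highest fed one. The values within genotypes were alike in size, 3.61-fold in controls and 3.77-fold in knockouts, but missed the threshold (adjusted p = 0.253 and 0.218). The control value passed when clusters of title numbers formed a random block (log2 2.68, adjusted p = 0.0281). The averaged call was lost without the filter on low counts (adjusted p = 0.0548) and on leaving out any of 14 libraries: control fed replicates 1, 3, 4 and 5, control fasted replicates 1, 2 and 5, knockout fed replicates 1, 2, 4, 5 and 6, and knockout fasted replicates 1 and 4. Over all 22 omissions the log2 value lay between 1.59 and 2.34 and the adjusted p between 0.0116 and 0.081.

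Igfbp1 lies at chr11:7197782-7202546 on the forward strand. The 250 bases before its RefSeq start (chr11:7197537-7197786, GRCm38.p6) are shown because this gene moved opposite to Igfals and its window holds the remaining motif, CAAAACA (the core of the insulin response element bound by FOXO factors).

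Igfbp1 upstream window: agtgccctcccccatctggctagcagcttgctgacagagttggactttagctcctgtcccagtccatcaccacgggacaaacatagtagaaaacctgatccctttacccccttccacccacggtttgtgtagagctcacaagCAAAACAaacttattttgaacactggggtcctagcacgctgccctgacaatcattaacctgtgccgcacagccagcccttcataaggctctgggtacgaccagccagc

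The capitals mark the match on the forward strand, 108 to 102 bases before the start. The motif occurs on either strand in 6.28% of the 32851 windows and in 1 of the 13 windows of these genes. This window held neither GTAAACA nor TTCNNNGAA.

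Igfbp3 (chr11:7206086-7213923, reverse strand) is the neighbour of Igfbp1, with 3539 bases between their annotated ends. Its product is the main IGF carrier of blood, and in liver it is known to be made largely by non-parenchymal cells. It was at 12.7, 13.2, 9.92, 12.8 and 7.64 CPM in control fed and at 11.3, 23.6, 7.68, 21.7 and 9.52 CPM in control fasted libraries. Knockouts ranged from 6.76 to 23.4 CPM (median 17.1) when fed and from 9.71 to 39.3 CPM (median 12.6) when fasted. The groups overlapped throughout, and the fasting value of 0.24 ± 0.27 (log2, SE) did not pass (edgeR adjusted p = 0.683). Igfbp3 did not follow its neighbour in the size of this value, although the difference between the genes was not tested. The summed level of 10 endothelial markers was 167 to 260 CPM in control fed, 210 to 289 in control fasted, 254 to 381 in knockout fed and 247 to 365 CPM in knockout fasted libraries, with none of the markers at 0 throughout. Averaged over genotypes 3 of those 10 rose with fasting (Lyve1, Stab1 and Stab2) and 7 did not pass. Of all genes tested, 14.3% passed for fasting in either direction. The median log2 fold change of the 10 with fasting was 0.12 averaged, 0.18 in controls and 0.04 in knockouts. Averaged over feeding states 2 of the 10 were higher in knockouts (Cdh5 and Kdr). These 2 are among 6 genes of all tested (0.0358%) that passed there, 5 of them higher; with clusters of title numbers as the block 1 gene was higher, and with control fasted replicate 4 included none was. The part of these cells in the Igfbp3 values was not tested.

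Igfbp4 (chr11:99041244-99054392, forward strand), which encodes a binding protein that inhibits IGF action in tissues, rose modestly. It was at 1651, 1825, 1375, 1600 and 1761 CPM in control fed and at 2320, 2010, 2028, 1480 and 1982 CPM in control fasted libraries. Knockouts ranged from 1475 to 1931 CPM (median 1534) when fed and from 1672 to 2618 CPM (median 2081) when fasted. Of the fasted libraries 8 of 11 lay above the highest fed one. The averaged rise was 1.24-fold (95% interval 1.1 to 1.39, edgeR adjusted p = 0.0105). The knockout value of 1.28-fold missed the threshold (adjusted p = 0.0573) but passed without the filter on low counts (0.0292), with DESeq2 (0.0262) and without control fasted replicate 5 (0.0344), knockout fed replicate 3 (0.0283) or knockout fasted replicate 5 (0.0239).

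Summed per length over Igfbp1 to Igfbp7, binding protein transcripts were at 710 ± 150 RPKM in control fed and 1362 ± 346 RPKM in control fasted livers (SD, n = 5 each), and at 783 ± 176 and 1509 ± 448 RPKM in knockouts (n = 6 each). Igfbp2 made up 33.8% ± 3.34 of the sum in control fed and 52.6% ± 5.58 in control fasted livers, and 35.1% ± 4.47 and 48% ± 14.1 in knockouts. The share of Igfbp4 went from 53.4% ± 6.76 to 33.5% ± 5.98 in controls and from 48.1% ± 5.41 to 33% ± 7.18 in knockouts, although its level rose. Shares of a sum are tied to each other, and they were not tested. Igfbp1 made up 0.484% to 12.1% in control fed libraries and reached 42.1% in a knockout fasted library, replicate 4, where Igfbp2 was at its lowest fasted share, 21.7%.

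**Figure D2:**
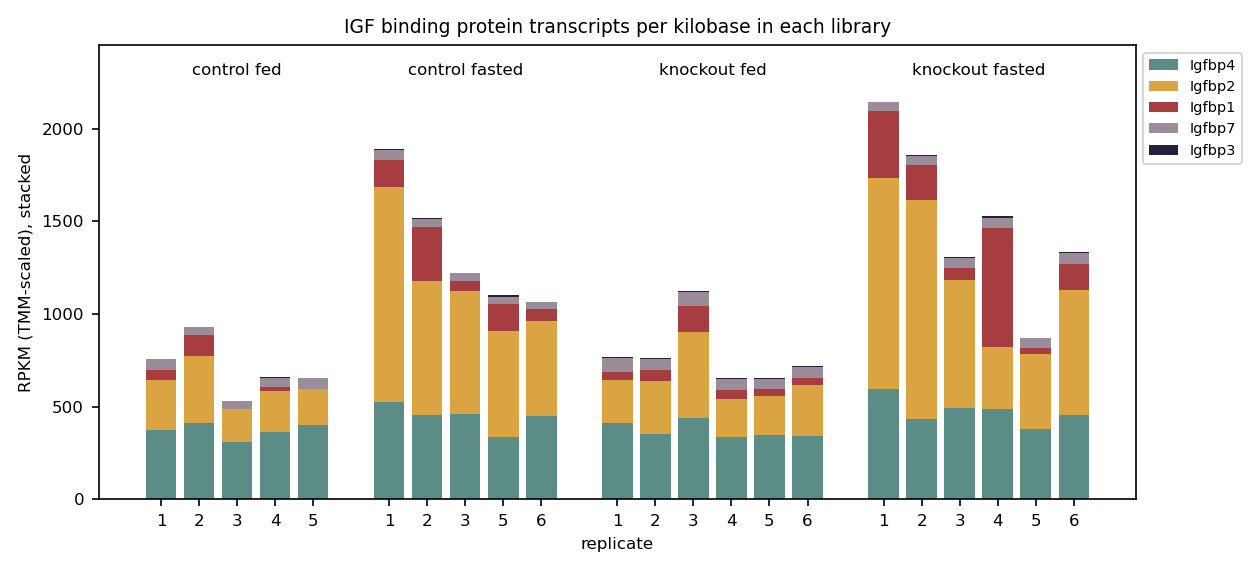
Stacked bars of TMM-scaled RPKM for 5 of the IGF binding protein genes in each library, grouped by genotype and feeding state, with the replicate number on the x axis; Igfbp5 and Igfbp6, whose mean shares stay under 1%, are not drawn. The Igfbp2 segment is larger in fasted libraries, and in knockout fasted replicate 4 the Igfbp1 segment takes 42.1% of the full sum.

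Genotype was compared next, which asks whether loss of alanine transaminase 2 in liver goes with a different level of these genes. None of the 9 passed in fed livers, in fasted livers or averaged over feeding states. At an unadjusted p of 0.05 the counts were 0, 0 and 1, and DESeq2 passed 0 in each. Over all genes the shares that passed were 0.00597% (1 gene) in fed, 0.00597% (1 gene) in fasted livers and 0.0358% (6 genes) averaged. The gene counted there was Stat5b, at 0.26 ± 0.10 above control in knockouts (log2, SE, edgeR adjusted p = 0.439). Its means were 72.2 and 87.4 CPM in fed and 57.1 and 67.4 CPM in fasted controls and knockouts.

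How large a genotype difference the libraries could hold differed by gene. For Igf1 the averaged difference was 1.07-fold with a 95% interval of 0.96 to 1.2, and for Igfbp4 it was 1.03-fold (0.913 to 1.16). For Ghr it was 1.12-fold (0.997 to 1.26). For Igfbp2 the interval reached from 0.771 to 1.51-fold, for Igfbp3 from 0.902 to 1.98-fold, for Socs2 from 0.461 to 1.95-fold and for Igfbp1 from 0.705 to 3.84-fold. Differences up to the ends of these intervals were not excluded by these libraries.

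Whether fasting acted differently in knockouts was tested by the interaction of genotype and fasting. None of the 9 genes passed, 0 had an unadjusted p under 0.05, and DESeq2 passed 0; over all genes 0.00597% passed (1 gene). The interaction for Ghr was -0.04 ± 0.16 (log2, SE, 95% interval -0.37 to 0.30) and for Igf1 -0.04 ± 0.16 (-0.37 to 0.29). For Igfbp2 it was -0.18 ± 0.46 (-1.15 to 0.79) and for Igfbp1 0.06 ± 1.15 (-2.35 to 2.48). For Ghr and Igfbp2 the interval held no difference as large as the averaged fasting change. For Igf1, Igfbp1, Socs2 (-1.70 to 2.47), Stat5b (-0.45 to 0.37), Igfals (-0.81 to 0.18), Igfbp3 (-1.43 to 0.82) and Igfbp4 (-0.25 to 0.44) it included larger ones. An equal response in the genotypes was thus not shown for these genes.

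**Figure D3:**
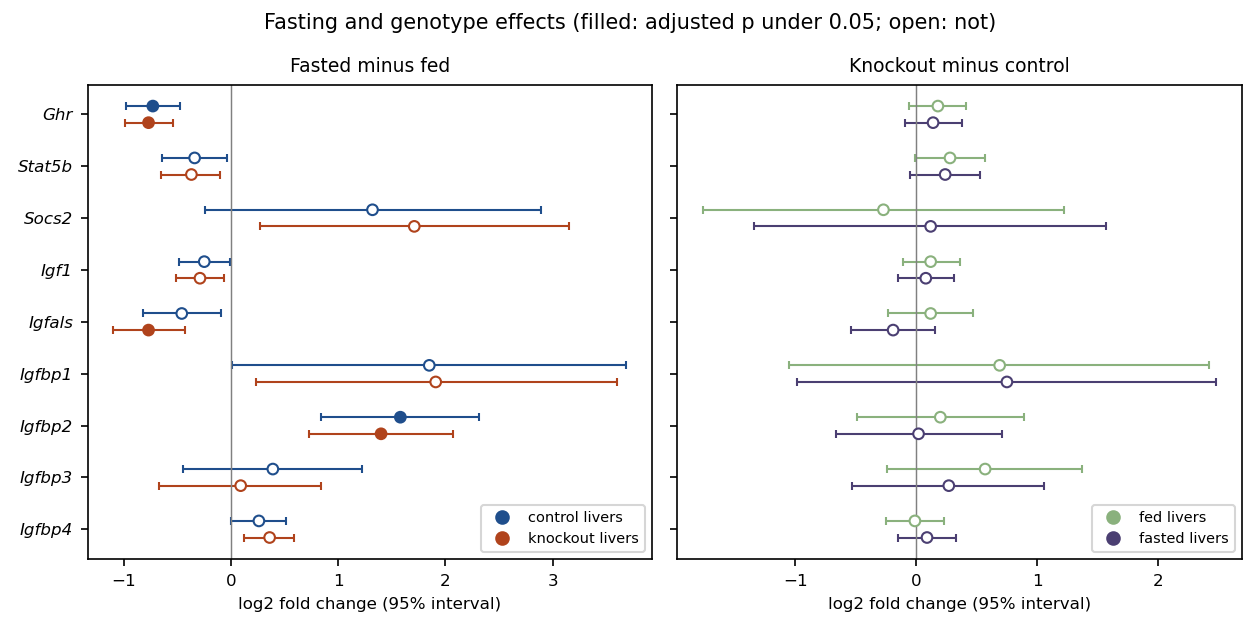
Fitted log2 fold changes (points) with 95% intervals (bars) for the 9 genes, fasted minus fed in each genotype on the left and knockout minus control in each feeding state on the right; filled points passed an adjusted p of 0.05 and open points did not. The fasting intervals of the genotypes overlap for each gene; the values are -0.73 and -0.77 for Ghr and -0.46 and -0.77 for Igfals, which passed in knockouts. No genotype value passed.

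Libraries of a group also varied together. Deviations of log2 CPM from the group mean were correlated for all 36 pairs of the 9 genes over 22 libraries, with p-values from 100000 permutations within groups, adjusted over the 36 pairs. For 4 pairs both Pearson's r and Spearman's rho passed. Igfals and Igfbp1 went in opposite directions (r = -0.70, p = 2.00e-05, adjusted p = 0.00072; rho = -0.77, p = 5.00e-05, adjusted p = 0.0018), as did Igfals and Igfbp3 (r = -0.76, p = 0.00079, adjusted p = 0.00837; rho = -0.71, p = 0.00201, adjusted p = 0.0241). Ghr and Igf1 varied in the same direction (r = 0.75, p = 0.00093, adjusted p = 0.00837; rho = 0.65, p = 0.00278, adjusted p = 0.025), and so did Igfbp1 and Stat5b (r = 0.68, p = 0.00072, adjusted p = 0.00837; rho = 0.69, p = 0.00084, adjusted p = 0.0151). The neighbours Igfbp1 and Igfbp3 passed by r alone (r = 0.52, adjusted p = 0.0464; rho = 0.56, adjusted p = 0.058).

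Leaving out the 2 libraries farthest from the median of the first gene, r was -0.64 for Igfals and Igfbp1, -0.62 for Igfals and Igfbp3, 0.61 for Ghr and Igf1, 0.75 for Igfbp1 and Stat5b and 0.51 for Igfbp1 and Igfbp3. Knockout fasted replicate 4 had the highest Igfbp1 (982 CPM) and Igfbp3 (39.3 CPM) of all 22 libraries and the lowest Igfals (43.5 CPM). Without it, an omission chosen after these values were seen, r was -0.65 for Igfals and Igfbp1, -0.67 for Igfals and Igfbp3, 0.63 for Igfbp1 and Stat5b, 0.43 for Igfbp1 and Igfbp3 and 0.79 for Ghr and Igf1. The p-values of these reduced sets were not computed. Knockout fed replicate 5 had the highest Ghr (579 CPM) and Igf1 (669 CPM) of all libraries.

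**Figure D4:**
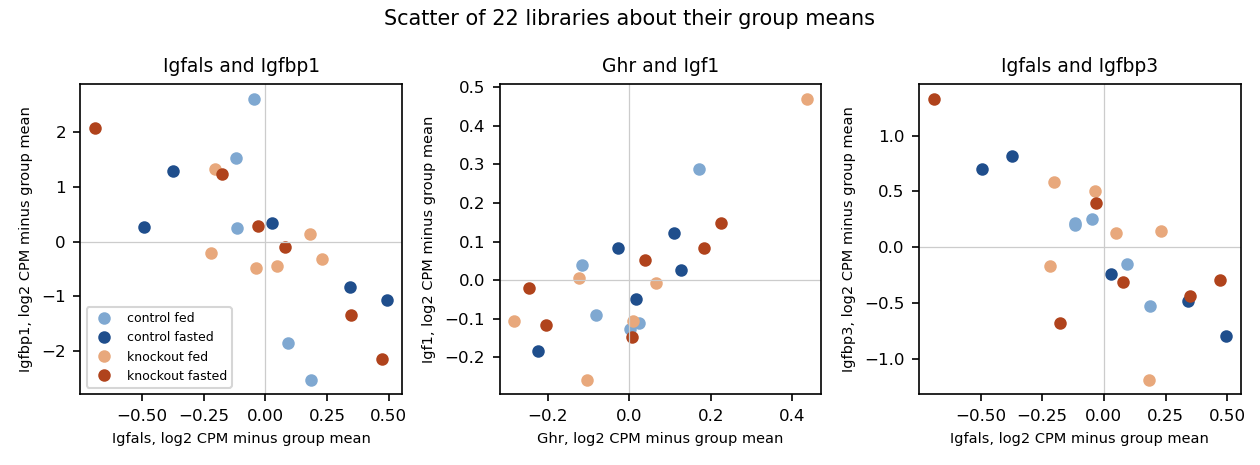
Log2 CPM minus the group mean for 3 pairs of genes, 1 point a library (22 in each panel), coloured by group. Igfals falls as Igfbp1 or Igfbp3 increases (r = -0.70 and -0.76), and Ghr and Igf1 increase together (r = 0.75).

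Genes nearest in pattern to a given gene over the 22 libraries were found by the root mean square difference of centred log2 CPM. The search covered 8904 genes whose log2 CPM averaged 2 or more, and medians are over these. Genes without a symbol and genes named as predicted genes, clones or pseudogenes were left out of it. For Ghr the nearest genes were Idh1, the cytosolic isocitrate dehydrogenase (0.15), and Enpep, which encodes glutamyl aminopeptidase (0.18), with a median of 0.51. For Igf1 they were Il1rap, the interleukin 1 receptor accessory protein (0.11), and Acadsb, an acyl-CoA dehydrogenase of branched-chain substrates (0.13), with a median of 0.37. For Igfbp1 they were Slc17a8, a vesicular glutamate transporter (1.09), and Angptl4, an inhibitor of lipoprotein lipase (1.14), at a median of 1.77. This measure grows with a gene's own spread, so its size cannot be compared between Ghr, Igf1 and Igfbp1. The SD of log2 CPM over the libraries was 1.79 for Igfbp1, 0.43 for Ghr and 0.22 for Igf1.

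Other genes of the pathway were taken from lists that were likewise compiled with earlier results known. Their counts for fasting averaged over genotypes are to be read against the 14.3% of all 16757 genes that passed there (1187 higher, 1217 lower). Of 15 further genes of growth hormone receptor signalling, 2 rose and none fell with fasting averaged over genotypes, a share near the 14.3% of all genes: Sh2b1, an adaptor of JAK2 (0.29 ± 0.07, log2, SE, edgeR adjusted p = 0.00398), and Ptpn11, the phosphatase SHP2 (0.30 ± 0.08, adjusted p = 0.00532). Their median log2 fold change was -0.10, against 0.01 over all genes. Jak2 itself was at -0.30 ± 0.13 (adjusted p = 0.138) and the feedback inhibitors Cish and Socs3 at -0.59 ± 0.49 (0.546) and 0.00 ± 0.27 (0.998). None of the 15 passed in a genotype comparison or the interaction.

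Of 11 further genes of the IGF system, 8 were abundant enough to be tested and 1 passed, a share near the 14.3% of all genes. Igfbp5, a binding protein of matrix-producing cells, fell by 1.30 averaged over genotypes (log2, SE 0.22, edgeR adjusted p = 5.36e-05), from 11.1 ± 2.64 to 4.92 ± 1.59 CPM in controls (SD, n = 5 each) and from 10.6 ± 5.13 to 3.93 ± 1.08 CPM in knockouts (n = 6 each). Of 10 markers of stellate cells 4 fell with fasting (Col3a1, Col14a1, Col1a1 and Reln), none rose and 6 did not pass. This is to be read against the 14.3% of all genes. Dcn, among the 6, was at 58.3 CPM in both fed and fasted knockouts. The summed level of the 10 was 153 to 203 CPM in control fed and 94.1 to 155 CPM in control fasted libraries. In knockouts the sum was 174 to 226 CPM when fed and 114 to 189 CPM when fasted. None of the 10 was at 0 throughout, and their part in the Igfbp5 result was not tested. With control fasted replicate 4 included the averaged Igfbp5 value was -0.10 and did not pass (adjusted p = 0.946). The IGF1 receptor gene Igf1r was at 1.18 ± 1.54 CPM in control fed livers and did not pass (0.27 ± 0.55, log2, SE, adjusted p = 0.841).

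Many liver genes respond to the sex-dependent pattern of growth hormone secretion. The labels name no sex for these mice, and the letter M in the titles is not explained in them. Of 13 genes listed as dependent on the male pattern 7 fell and none rose averaged over genotypes, with a median log2 fold change of -0.64, where 14.3% of all genes passed in either direction. The named ones were Nudt7, a peroxisomal hydrolase of coenzyme A (-2.53 ± 0.24, log2, SE, edgeR adjusted p = 2.14e-07), Hsd3b5, a hepatic steroid reductase (-3.50 ± 0.37, 1.30e-06), Selenbp2, a selenium binding protein (-2.90 ± 0.31, 1.35e-06), and Cyp2u1, a cytochrome P450 (-0.82 ± 0.16, 0.00039). Hsd3b5 went from 201 ± 50.7 to 13.5 ± 7.21 CPM in controls and from 171 ± 29.5 to 19.9 ± 13.5 CPM in knockouts. Hsd3b5 has close paralogs, between which the counting may divide reads. The other 3 that fell were Slco1a1, Elovl3 and Ugt2b1.

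Of 10 genes listed for the female pattern 9 were tested, and 3 rose and none fell (median log2 fold change 1.26), where 14.3% of all genes passed in either direction. They were Acot3, an acyl-CoA thioesterase (4.10 ± 0.53, log2, SE, edgeR adjusted p = 1.67e-05), Cyp17a1, a steroid hydroxylase (3.16 ± 0.63, 0.00147), and Cux2, a transcriptional repressor (2.82 ± 0.63, 0.00346). Acot3 went from 1.49 ± 1.35 to 45.8 ± 8.69 CPM in controls and from 4.41 ± 3.46 to 41 ± 23 CPM in knockouts. Acot3 also belongs to the fat oxidation genes that fasting is known to induce. Cux2 stayed at or under 14.1 CPM in each library. The other 6 genes tested did not pass averaged over genotypes. In controls the median of the list was 2.21 and the same 3 genes passed, where 8.12% of all genes did. In knockouts the median was 0.41 and only Acot3 passed, where 6.14% of all genes did. The Cyp17a1 and Cux2 calls turned on the setting. In controls both were lost with the random block in limma (adjusted p = 0.161 and 0.0521). Each was also lost on some omissions of 1 library (5 for Cyp17a1, 2 for Cux2). Cyp17a1 passed in knockouts with DESeq2 (adjusted p = 0.00465), with the block (0.0181) and on 2 omissions. None of the genes of either list passed in a genotype comparison or the interaction.

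Of 10 genes of insulin and FOXO control, 2 rose and 1 fell, against 14.3% of all genes passing in either direction. Srebf1, which insulin is known to induce, fell by 2.30 (log2, SE 0.25, edgeR adjusted p = 1.82e-06), and Pck1, a gluconeogenic enzyme that insulin represses, rose by 0.89 ± 0.19 (adjusted p = 0.00211). Trib1, a pseudokinase, rose by 0.37 ± 0.09 (adjusted p = 0.00428), a call lost with control fasted replicate 4 included (0.28, adjusted p = 0.289). Within genotypes Pck1 passed in knockouts and not in controls, but both results turned on the setting. The knockout call was lost on leaving out any of 9 libraries and with library totals (edgeR adjusted p = 0.0691). It was also lost without the filter on low counts (0.0712) and with control fasted replicate 4 included (0.0956). The control value passed with DESeq2 (adjusted p = 0.00491) and with the random block in limma (0.00541). In edgeR it passed without control fed replicate 2 (0.000589) or knockout fasted replicate 4 (0.0392). The other 7 genes of the list did not pass averaged over genotypes. Among them, mean G6pc went from 206 to 259 CPM in controls and from 283 to 163 CPM in knockouts. Mean Irs2 went from 15.6 to 36.3 CPM in controls and from 33.5 to 26.6 CPM in knockouts. The median log2 fold change of the list was 0.16. No gene of the list passed by genotype or in the interaction.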

How the data were processed

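Liver RNA selected with oligo-dT was sequenced in 24 labelled libraries. Per the submitters' processing notes, the deposited counts per gene (GRCm38) were made with STAR 2.5.1a and featureCounts 1.4.6-p5 after bcl2fastq. The deposited CPM and RPKM columns, per the file headers, were checked against the counts and not otherwise used. Annotation release and strand setting: not given in the sources used here. Symbols were found for 97.3% of 41388 genes.

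Groups came from the titles. The 9 genes, the comparisons and all gene lists were chosen with earlier results of these data known. Counts of 22 libraries entered 1 fit of edgeR 4.0.16 in R 4.3.3 (robust glmQLFit, glmQLFTest, TMM, filterByExpr by group with minimum count 10 and total 15), two-sided, with Benjamini-Hochberg adjustment over 16757 genes and calls at an adjusted p under 0.05. The SE is the log2 fold change over the square root of F. Log2 CPM used a prior count of 2. All 9 genes passed the filter. Of each further list, up to 4 passing genes of smallest p were named; values for others were chosen after they were seen. The fit was tested on simulated counts.

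Alternatives were RLE size factors, library totals, no filter beyond 1 count, DESeq2 1.42.0, the compared groups alone, 23 libraries, 10 clusters of neighbouring title numbers (gaps of up to 2) as a random block in limma 3.58.1 voom (consensus correlation -0.0128), and each library left out in turn. Promoter windows are RefSeq's for GRCm38.p6.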

Additional observations from a re-analysis of the deposited data

Results flagged for a closer look

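Of 36 groups of libraries (9 genes in 4 groups), 7 held a library whose gap to its nearest neighbour was large for the group's range. For independent and normally spread values the rule flags about 1 in 20. These groups share libraries, CPM was taken on its linear scale, and each library flagged was the highest of its group. The 1 in 20 is thus not the chance rate here. Igf1 was at 669 CPM in knockout fed replicate 5. Knockout fed replicate 3 stood apart for Igfbp1 (217 CPM) and Igfbp2 (859 CPM), and knockout fasted replicate 4 for Igfbp3 (39.3 CPM). Socs2 stood apart in control fed replicate 4 (26.1 CPM), control fasted replicate 1 (42.5 CPM) and knockout fasted replicate 2 (65.1 CPM).

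In the library labelled control fasted replicate 4, which entered no comparison, Ghr was at 442 CPM on library totals against at most 418 in the control libraries used, and Igfbp3 at 182 CPM against at most 22.5. In the same library Igf1 was at 8.02, Igfbp2 at 5.18 and albumin (Alb) at 123 CPM, each under the lowest control library used, while the kidney gene Kap was at 7041 CPM.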

How the results depend on the processing

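Over the alternatives to the 22-library fit other than leaving a library out, 383 of 414 fold changes of the 9 genes kept their direction and their side of the threshold. Ghr passed for fasting in each of them. Adding control fasted replicate 4 left 805 genes passing for fasting in controls (1 of the 9), 379 in knockouts (1) and 1529 averaged (2, Ghr and Stat5b), and by genotype 0 in fed, 0 in fasted and 1 averaged, with 0 for the interaction. With it these log2 values changed sign: Igfbp5 for fasting in controls (1.22), Igfals by genotype in fasted livers (0.05) and averaged (0.08), Igfbp3 likewise (-0.80 and -0.11), Socs2 by genotype averaged (0.01), and the interaction for Igf1 (0.22), Igfbp2 (0.08) and Stat5b (0.05). The cause of these changes was not tested.

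Genes passing by genotype numbered 5 in fed livers and 12 averaged with library totals, 14 and 12 without the filter, and 83 and 37 with DESeq2, which passed 2 in fasted livers and 10 for the interaction. The random block left 2 averaged over feeding states. Library totals gave Igfbp4 by genotype in fed livers as 0.03. The random block changed the sign of Igfbp3 for fasting in knockouts (0.00), Socs2 by genotype in fed (0.38) and fasted livers (-0.21) and averaged (0.08), Igfbp2 by genotype in fasted livers (-0.07), and the interaction for Igfbp1 (-1.23) and Socs2 (-0.59). Replicate numbers, given in accession order, pair no libraries, so the clusters of title numbers were the only block fitted.

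On leaving out each library in turn, genes passing by genotype ranged from 1 to 13 in fed livers and from 3 to 15 averaged, and for the interaction from 0 to 1. Signs changed for Igfbp3 for fasting in knockouts (-0.32 to 0.21). By genotype in fed livers they changed for Igfbp2 (-0.01 to 0.38), Igfbp4 (-0.07 to 0.03) and Socs2 (-0.54 to 0.90), and in fasted livers for Igfbp2 (-0.17 to 0.25), Igfbp3 (-0.15 to 0.49) and Socs2 (-0.60 to 0.58). Averaged over feeding states they changed for Igfals (-0.09 to 0.03), Igfbp4 (0.00 to 0.07) and Socs2 (-0.44 to 0.51). For the interaction they changed for Ghr (-0.09 to 0.06), Igf1 (-0.12 to 0.07), Igfbp1 (-0.85 to 0.49), Igfbp2 (-0.36 to 0.05), Socs2 (-0.79 to 0.85) and Stat5b (-0.16 to 0.06). None of these values passed. Among the genes studied Socs2 had the lowest read count in a library, 57 reads. Whether depth limited its values was not tested.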
